A study of Mus musculus with 4 samples.

Results

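ATF4-linked amino acid transporters are described here in brown adipose tissue across 4 RNA-seq libraries. The 10 genes Slc7a5, Slc3a2, Slc7a11, Slc7a1, Slc1a4, Slc1a5, Slc38a1, Slc38a2, Slc38a7 and Slc6a9 were chosen by symbol, out of 52022 genes to which the deposited transcripts could be assigned. The libraries labelled KO are 2, from mice lacking ATF4 in thermogenic adipocytes, and the other two are labelled WT. All came from male mice fed ad libitum that had eaten a 60% fat diet for 12 weeks. The labels do not say how Atf4 was deleted, how old the mice were or whether each library is 1 animal. Library names start with S1 (KO 1 and WT 2) or S2 (KO 2 and WT 1), and the labels do not say what this prefix stands for.

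ATF4 is a transcription factor made when the integrated stress response slows general translation, for example when amino acids run short. It binds C/EBP-ATF response elements and raises genes of amino acid synthesis and uptake, so that a starved cell can refill its pools. Brown adipocytes burn fuel to make heat, and their glutamine and branched-chain amino acids enter through carriers of this kind. The proteins studied here fall into the heterodimeric exchangers (the heavy chain Slc3a2 with light chains such as Slc7a5 and Slc7a11), the cationic carrier Slc7a1, the neutral exchangers Slc1a4 and Slc1a5, the sodium-coupled glutamine carriers of the Slc38 family, and the glycine carrier Slc6a9.

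The promoter letters of 7 of the 10 genes were found in RefSeq's table (GRCm38.p6), which holds 250 bases before and 50 after each start, with 10 promoters in all since some genes have several starts. The core of the C/EBP-ATF response element was searched as TGATGNAA on both strands, and it was present in 2 of these 7 genes, Slc7a11 and Slc1a4, and in 3.97% of all 32851 promoters of that length. The promoter of Slc7a11 held 2 matches, starting 66 bases before the start on the plus strand of the gene and 47 bases before it on the other strand, as did 0.0700% of all promoters with at least 2 matches. That of Slc1a4 held it once, on the other strand and across the start. Both are shown because they hold the letters of the element that ATF4 is known to bind, in capitals, 5′ to 3′ along the gene. The first window is chr3:50443614-50443863, minus strand, and ends just before the start. The second is chr11:20332704-20332963, minus strand, and runs 10 bases past the start.
Slc7a11: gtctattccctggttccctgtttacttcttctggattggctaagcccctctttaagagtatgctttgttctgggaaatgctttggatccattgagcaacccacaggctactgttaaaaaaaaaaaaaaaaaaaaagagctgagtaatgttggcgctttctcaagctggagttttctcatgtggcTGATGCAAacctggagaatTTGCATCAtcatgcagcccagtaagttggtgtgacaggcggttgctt
Slc1a4: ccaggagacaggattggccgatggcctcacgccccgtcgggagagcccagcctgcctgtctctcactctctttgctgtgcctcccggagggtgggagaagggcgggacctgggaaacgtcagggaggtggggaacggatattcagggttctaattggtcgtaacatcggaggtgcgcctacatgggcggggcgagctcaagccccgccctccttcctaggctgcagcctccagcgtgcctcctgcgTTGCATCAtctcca
A second motif, the antioxidant response element core TGACNNNGC, was searched in the same way and was present at 1 or more of the starts of Slc7a1, Slc38a2 and Slc6a9. Over all promoters, each counted once, it was in 12.4%. Both shares are per promoter, so they cannot be set directly beside a count of genes. A match here is a description of letters, and elements outside these windows were not searched.

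Total estimated counts ran from 25985367 to 34813870 per library. Genes encoded by mitochondrial DNA took 38.9 and 33.0% of gene counts in KO 1 and KO 2, against 34.1 and 33.9% in WT 1 and WT 2. The level of Atf4, the deleted gene, was 24.97 and 24.5 CPM (counts per 1e+06 on TMM-scaled libraries) in KO 1 and KO 2, against 29.2 and 107 CPM in WT 1 and WT 2, so that WT 1 lay close to the KO libraries and the names KO and WT here are those of the labels. All 12 brown adipocyte markers were measured in every library, with Ucp1, the uncoupling protein, at 7024 and 5989 CPM in KO and 5563 and 6295 CPM in WT. Each KO library lay under each WT library for 4 of the 12 (Prdm16, Zic1, Ebf2 and Dio2), against 13.1% of all genes. The opposite held for 1 of the 12, against 13.2% of all genes. The 18 skeletal muscle markers summed to 3425 and 3107 CPM in KO 1 and KO 2, against 41.3 and 47.1 CPM in WT 1 and WT 2, and 17 of them passed the edgeR test described next. The 12 macrophage markers summed to 120 and 357 CPM in KO 1 and KO 2, against 431 and 323 CPM in WT 1 and WT 2. The part of these differences in the transporter results was not tested.

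None of the 10 transporters passed a test of KO against WT. The test was edgeR's quasi-likelihood test on the 4 libraries, with Benjamini-Hochberg adjustment over 15643 genes and a threshold of 0.05, and all 10 passed its filter on low counts. It called 0 of the 10, where it called 0.78% of all genes (0.767% higher and 0.0128% lower in KO), and 0 of the 10 had an unadjusted p under 0.05, against 4.02% of all genes. DESeq2 and limma-voom also called 0 of the 10, against 1.02% and 0.818% of all genes. Blocking on the prefix again called 0 of the 10, against 2.05% of all genes (0.473% lower in KO), and 1 gene, Slc38a2, had an unadjusted p under 0.05, against 8.88% of all genes.

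The fitted differences of the 10 genes lay mostly below 0. Their median log2 fold change (KO over WT) was -0.18, beside 0.00 over all genes tested, and the range was -0.53 to 0.29. Of the 10, 8 had a fitted value below 0, against 49.7% of all genes. Among these 8, Slc7a5 (-0.06, SE 0.41) and Slc7a1 (-0.04, SE 0.28) lay near 0. Leaving out 1 library could turn Slc7a5, Slc7a1, Slc7a11 and Slc1a5 positive, and Slc38a7, which was above 0, negative. Within the prefixes, 5 of the 10 were lower in KO in both, against 26.5% of all genes, 1 was higher in both, against 25.4%, and the other 4 went opposite ways, against 48% of all genes. Each KO library lay under each WT library in CPM for Slc3a2, Slc38a1 and Slc38a2, 3 of the 10, against 13.1% of all genes, and the opposite held for 0 of the 10, against 13.2%. The prefixes differed (S2 over S1) in 0 of the 10, against 3.14% of all genes, and at an unadjusted p under 0.05 in 2, Slc1a5 and Slc38a2, against 19.8%. These counts were not tested, and the genes were chosen with earlier results of these data known. In a piece of whole tissue, fewer cells of a type and less RNA per cell cannot be told apart.

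**Figure D1:**
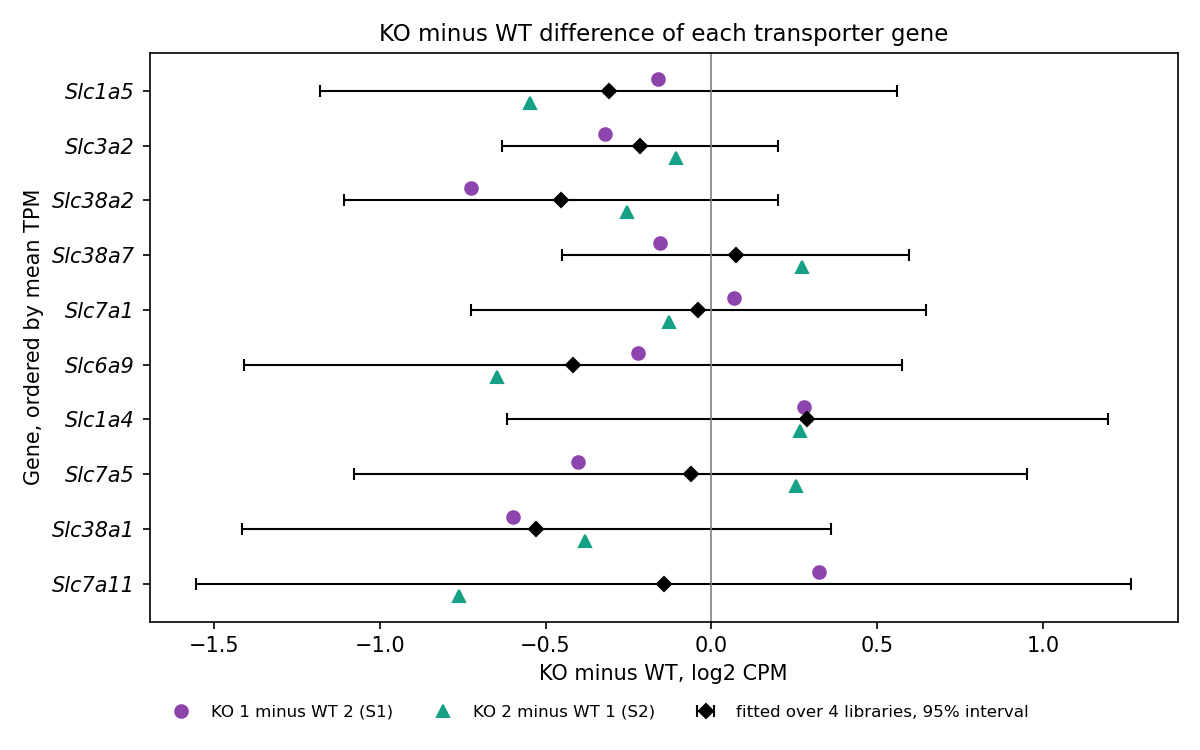
KO minus WT difference of the 10 genes in log2 CPM, ordered by mean TPM from the top. Circles are KO 1 minus WT 2 (prefix S1), triangles KO 2 minus WT 1 (prefix S2), and diamonds the fitted change over 4 libraries with its 95% interval. All 10 intervals take in 0, and circle and triangle lie on the same side of 0 for 6 genes.

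Levels differed far more between the genes than between the libraries. On the scale of TPM (transcripts per 1e+06, corrected for length, summed per gene from the deposited values), Slc1a5 was the most abundant of the 10, with 351 and 251 TPM in KO 1 and KO 2, against 330 and 508 TPM in WT 1 and WT 2. Slc3a2 was the next, at 25.9 and 35.6 TPM in KO 1 and KO 2, against 33.2 and 40.6 TPM in WT 1 and WT 2. Slc38a2 followed, at 8.49 and 15.7 TPM in KO 1 and KO 2, against 18.1 and 16.7 TPM in WT 1 and WT 2. Slc38a7 averaged 3.55 TPM over the 4 libraries, and the other 6 genes (Slc7a1, Slc6a9, Slc1a4, Slc7a5, Slc38a1 and Slc7a11) averaged under 1 TPM, from 0.121 for Slc7a11 to 0.777 for Slc7a1. Summed over all transcripts, the libraries of the 4 leading genes did not overlap from one gene to the next. Neighbours among the 6 low genes overlapped, except that Slc7a11 lay below Slc38a1 in every library. Among 54 plasma membrane and related amino acid transporters compared on the same sums, Slc1a5 ranked 1, Slc3a2 5 and Slc38a2 8. The proton-coupled carrier Slc36a2 was at rank 2 with 244 and 258 TPM in KO and 251 and 279 TPM in WT. On coding transcripts alone Slc1a5 averaged 30.1 TPM over the 4 libraries and Slc3a2 33.3 TPM, so Slc1a5 does not lead on that basis. The 54 were not ranked by coding transcripts.

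**Figure D2:**
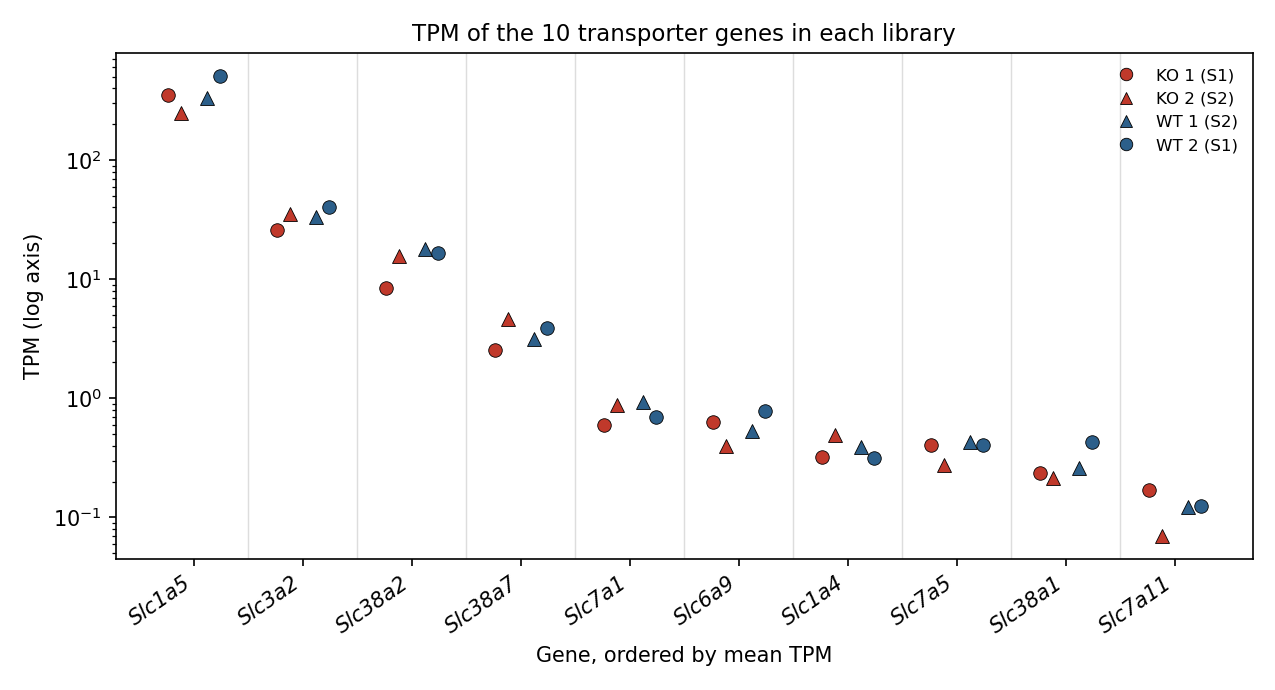
TPM of the 10 genes, summed over all transcripts of each gene, on a log axis, ordered by mean TPM. Red symbols are KO libraries and blue symbols WT libraries, circles have prefix S1 and triangles S2. Slc1a5 lies between 251 and 508 TPM in the 4 libraries and Slc7a11 between 0.0702 and 0.168 TPM.

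The heavy chain Slc3a2 (also CD98 or 4F2hc) carries its light chains to the cell surface. Slc3a2 (ENSMUSG00000010095, GRCm38 chromosome 19, 8706882 to 8723369) was at 40.6 and 42.2 CPM in KO 1 and KO 2, against 45.4 and 50.8 CPM in WT 1 and WT 2. The groups did not overlap in CPM, with KO lower, but they did in TPM, where KO 2 lay above WT 1. The log2 fold change was -0.22 (SE 0.17, 95% interval -0.63 to 0.20), with -0.32 within S1 and -0.11 within S2, and did not pass (adjusted p = 0.9998 in edgeR). Without WT 2 it was -0.13.

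Slc7a5, the light chain that exchanges leucine and other large neutral amino acids (GRCm38 chromosome 8, 121881150 to 121907694), was present in few counts. It had 17 and 27 counts in KO 1 and KO 2, against 24 and 33 counts in WT 1 and WT 2, which is 0.664 and 0.925 CPM in KO and 0.765 and 0.898 CPM in WT. The groups overlapped, and the log2 fold change of -0.06 (SE 0.41) had a 95% interval of -1.08 to 0.95, so these counts bound the difference only loosely. The fitted sign turned when KO 1 (0.15) or WT 2 (0.06) was left out. Its TPM also includes a retained-intron transcript of 618 bases, with 3.27 and 0 counts in KO 1 and KO 2, against 3.20 and 2.10 counts in WT 1 and WT 2. The coding transcript alone was at 0.140 and 0.275 TPM in KO 1 and KO 2, against 0.192 and 0.263 TPM in WT 1 and WT 2, which puts KO 1 lowest, whereas KO 2 is lowest in the TPM of the gene. On either basis Slc7a5 was under 1 TPM in every library and Slc3a2 was over 25 TPM.

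Slc7a11, the light chain that brings in cystine for glutathione and lets out glutamate (GRCm38 chromosome 3, 49892526 to 50443614), was the lowest of the 10. It had 17 and 8 counts in KO 1 and KO 2, against 16 and 19 counts in WT 1 and WT 2, and only 18.9 to 61.7% of these fell on its coding transcripts. Its log2 fold change was -0.14 (SE 0.57), with 0.32 within S1 and -0.76 within S2, and became 0.37 without KO 2. Its 95% interval, -1.55 to 1.26, was the widest of the 10, and the spread within groups, an SD of 0.552 in log2 CPM, was the largest of the 10. On coding transcripts alone it was at 0.0119 and 0.0113 TPM in KO 1 and KO 2, against 0.0550 and 0.0283 TPM in WT 1 and WT 2. On that basis KO was lower within both prefixes, but the counts were too few for the gene to be tested there.

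Other light chains were the ones present in quantity beside Slc3a2. Slc7a6, which exchanges cationic for neutral amino acids, was at 13.5 and 15.8 TPM in KO 1 and KO 2, against 19.5 and 21.0 TPM in WT 1 and WT 2. In CPM it was at 50.4 and 49.5 in KO, against 63.7 and 64.5 in WT, a log2 fold change of -0.36 (SE 0.16) that was -0.36 within S1 and -0.37 within S2 and did not pass (adjusted p = 0.9998 in edgeR, and 0.476 blocked on the prefix). Slc7a10, a carrier of small neutral amino acids that also marks white adipocytes, was at 6.96 and 4.76 CPM in KO 1 and KO 2, against 7.26 and 16.1 CPM in WT 1 and WT 2. It did not pass (log2 fold change -1.0003, SE 0.42, adjusted p = 0.9998 in edgeR). Blocked on the prefix it fell by 0.92 in log2 (SE 0.20, adjusted p = 0.0479), where edgeR called 0.473% of all genes lower, but on coding transcripts with the same block it did not pass (-0.68, adjusted p = 0.407). Without WT 1, which leaves WT 2 as the only WT library, its log2 fold change was -1.46. It did not pass in DESeq2 or limma-voom (adjusted p = 0.99999 and 0.9999), and passed in edgeR without a low-count filter (adjusted p = 0.00728). The prefixes also differed for Slc7a10, by -0.87 in log2 S2 over S1 (adjusted p = 0.0492 in the edgeR fit with genotype as a term). That fit called 3.14% of all genes. The 10 white adipocyte markers, of which Slc7a10 is 1, summed to 104 and 178 CPM in KO 1 and KO 2, against 409 and 310 CPM in WT 1 and WT 2. Lep was the largest part of each sum, at 42.7 and 111 CPM in KO 1 and KO 2, against 302 and 181 CPM in WT 1 and WT 2. Of the 9 tested, 8 had a fitted value below 0, against 49.7% of all genes, and the highest was 0.66. The part of these markers in the value of Slc7a10 was not tested. Slc7a8 and Slc7a7 had log2 fold changes of -0.24 and -0.11.

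**Figure D3:**
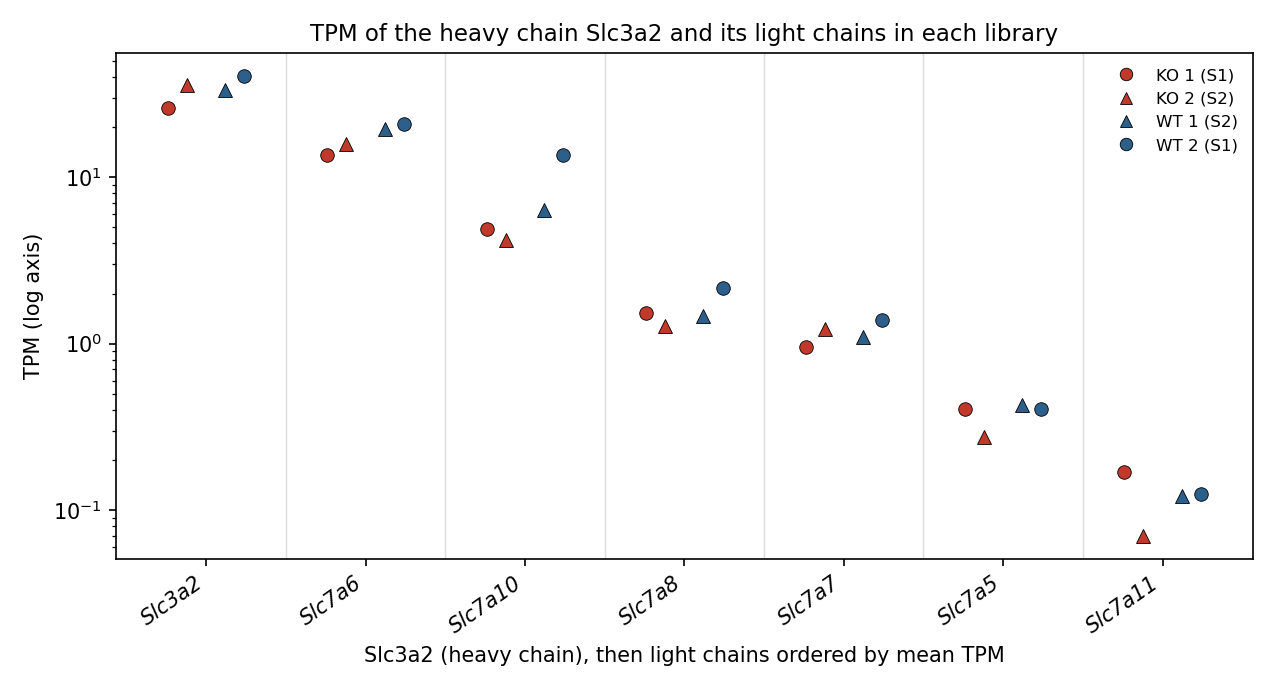
TPM of the heavy chain Slc3a2 and of 6 light chains on a log axis, with red KO and blue WT libraries, circles for prefix S1 and triangles for S2. Slc7a6 lies between 13.5 and 21.0 TPM, below Slc3a2 at 25.9 to 40.6 TPM, and Slc7a5 reaches 0.426 TPM at most in all 4 libraries.

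Slc7a1, the main carrier of arginine and lysine (GRCm38 chromosome 5, 148327410 to 148399904), was at 4.69 and 5.86 CPM in KO 1 and KO 2, against 6.40 and 4.46 CPM in WT 1 and WT 2. The groups overlapped, with a log2 fold change of -0.04 (SE 0.28, 95% interval -0.73 to 0.65), 0.07 within S1 and -0.13 within S2.

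Slc1a4 and Slc1a5 exchange small neutral amino acids, Slc1a4 chiefly alanine, serine and cysteine and Slc1a5 glutamine. Slc1a4 (GRCm38 chromosome 11, 20302180 to 20332713) was at 1.37 and 1.82 CPM in KO 1 and KO 2, against 1.497 and 1.12 CPM in WT 1 and WT 2. It was the 1 gene of the 10 that was higher in KO within both prefixes, by 0.28 and 0.27 on the log2 scale in S1 and S2, and its fitted change of 0.29 (SE 0.37, 95% interval -0.62 to 1.20) did not pass. That value was 0.07 without KO 2, 0.09 without WT 2 and 0.51 without WT 1. Slc1a5 was at 746 and 412 CPM in KO 1 and KO 2, against 602 and 834 CPM in WT 1 and WT 2, so the groups overlapped. Its log2 fold change was -0.31 (SE 0.35), with -0.16 within S1 and -0.55 within S2, and it became 0.05 without KO 2. Both S1 libraries were above both S2 libraries, and S2 over S1 the log2 difference was -0.66 (SE 0.21, adjusted p = 0.121 in the edgeR fit with genotype as a term, unadjusted p = 0.00964).

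Most reads counted for Slc1a5 (ENSMUSG00000001918, GRCm38 chromosome 7, 16781340 to 16798274, plus strand) were assigned to a transcript annotated as non-coding. The retained-intron transcript ENSMUST00000127401 took 81.1 and 70.6% of the gene's counts in KO 1 and KO 2, against 73.6 and 81.1% in WT 1 and WT 2. The only coding transcript, ENSMUST00000108496, took 10.03 and 18.6% in KO, against 17.0 and 8.08% in WT. Over 12729 genes with a coding transcript and at least 10 counts in every library, the median share of counts on coding transcripts was 97.0%, and 1.63% of these genes were at or below the mean share of Slc1a5, 13.4%. Among the 129 genes with a mean count at or above that of Slc1a5, 2 were, Slc1a5 included.

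These transcripts share 2736 bases and differ by a short intron that the non-coding one keeps, and by 28 bases at the 5′ end that the coding one alone has. The split of reads between them rests on few positions. The intron of 71 bases (chr7:16795953-16796023, plus strand, between the seventh and eighth exons of the coding transcript) is shown because it is what separates these transcripts, with 15 exon bases on each side in lower case and the intron in capitals, chr7:16795938-16796038, from GENCODE vM21.
Slc1a5 intron: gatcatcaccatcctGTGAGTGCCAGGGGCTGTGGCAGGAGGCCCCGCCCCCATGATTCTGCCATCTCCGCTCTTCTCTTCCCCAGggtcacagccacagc
The coding transcript alone was at 74.8 and 76.8 CPM in KO 1 and KO 2, against 102 and 67.3 CPM in WT 1 and WT 2. On this basis the groups also overlapped, the log2 fold change was -0.14 (SE 0.24, adjusted p = 0.99999 in an edgeR fit on coding transcripts, chosen after seeing the data, that called 0 of 9 genes tested, against 0.614% of all genes, or 1.17% blocked on the prefix), and the prefixes differed the other way, with S2 minus S1 at 0.32 for the coding and -0.83 for the retained-intron transcript in mean log2 CPM. Over all genes, retained-intron transcripts took 3.45 and 2.83% of matched counts in KO 1 and KO 2, against 2.68 and 3.33% in WT 1 and WT 2, so both S1 libraries were above both S2 libraries there too. The part of that share in the level of Slc1a5 was not tested. In coding TPM, Slc1a5 was at 25.3 and 29.5 in KO 1 and KO 2, against 38.4 and 27.2 in WT 1 and WT 2. Slc3a2 was at 25.9 and 35.3 coding TPM in KO 1 and KO 2, against 32.8 and 39.2 in WT 1 and WT 2. On this scale the levels of Slc1a5 and Slc3a2 overlapped, with Slc1a5 above Slc3a2 in WT 1 and below it in the other libraries.

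**Figure D4:**
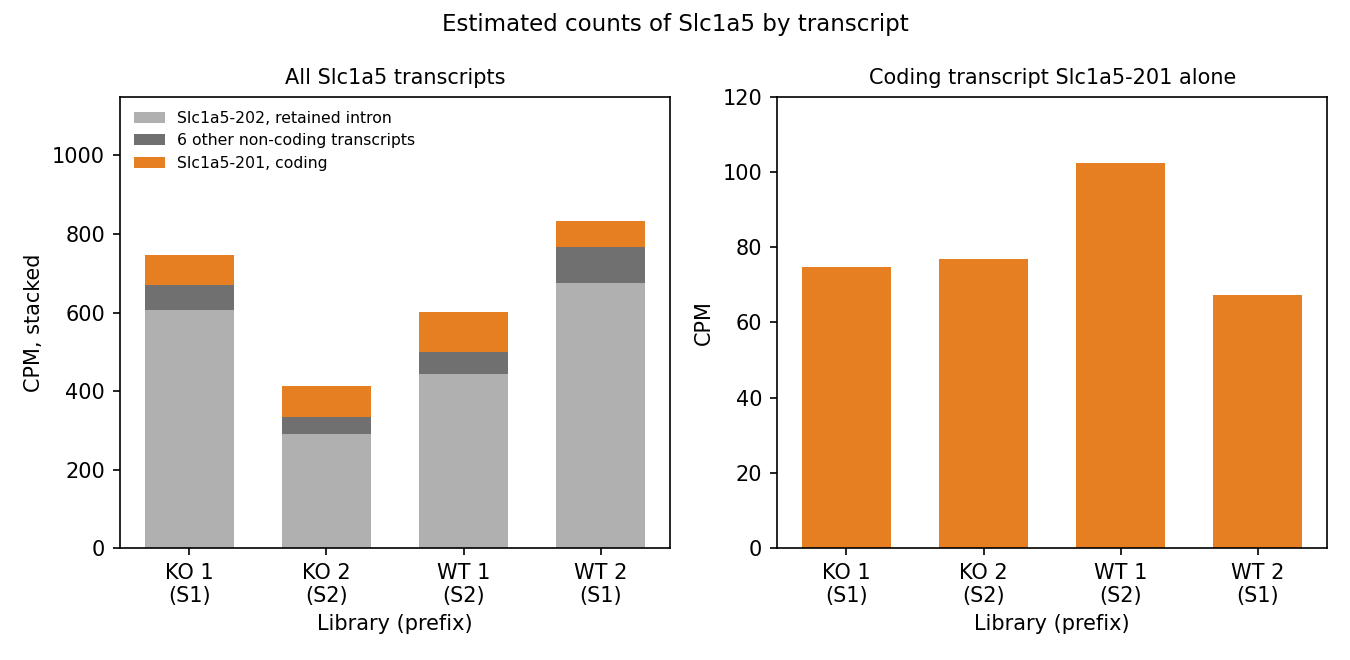
Slc1a5 in CPM by library. The left panel stacks the retained-intron transcript, the 6 other non-coding transcripts and the coding transcript, and the right panel shows the coding transcript alone on its own axis. The retained-intron transcript is at 606 and 291 CPM in KO 1 and KO 2, against 443 and 676 CPM in WT 1 and WT 2, while the coding transcript is at 67.3 to 102 CPM.

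Slc38a1 and Slc38a2 carry glutamine and other small neutral amino acids into the cell with sodium, and Slc38a2 is known to be raised by amino acid shortage. Slc38a2 (ENSMUSG00000022462, GRCm38 chromosome 15, 96687392 to 96699730) was at 44.7 and 71.7 CPM in KO 1 and KO 2, against 85.5 and 73.9 CPM in WT 1 and WT 2. The groups did not overlap, KO was lower, and KO 1 stood lowest. On the coding transcript alone the groups overlapped, at 7.93 and 15.3 TPM in KO 1 and KO 2, against 16.9 and 15.1 TPM in WT 1 and WT 2. The log2 fold change was -0.45 (SE 0.26, 95% interval -1.11 to 0.20), with -0.73 within S1 and -0.25 within S2. It did not pass (adjusted p = 0.9998 in edgeR, and 0.300 blocked on the prefix, where the change was -0.49, SE 0.17). Without KO 1 the value was -0.15, and without KO 2 it was -0.84, so 1 library decides its size.

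Slc38a1 (GRCm38 chromosome 15, 96571418 to 96642913) had 39 and 36 counts in KO 1 and KO 2, against 51 and 86 counts in WT 1 and WT 2, or 1.52 and 1.23 CPM in KO and 1.62 and 2.34 CPM in WT. This was the lowest fitted change of the 10, at -0.53 (SE 0.36, 95% interval -1.42 to 0.36), with -0.60 within S1 and -0.38 within S2. On coding transcripts alone it was -0.83 (SE 0.40, adjusted p = 0.99999 in edgeR), and without WT 2 it was -0.24. Slc38a7, which lets glutamine out of lysosomes (GRCm38 chromosome 8, 95835920 to 95853539), was at 7.31 and 9.56 CPM in KO 1 and KO 2, against 7.90 and 8.14 CPM in WT 1 and WT 2, with a log2 fold change of 0.07 (SE 0.21, 95% interval -0.45 to 0.60).

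Slc6a9, the glycine carrier (GRCm38 chromosome 4, 117834506 to 117875198), was at 1.72 and 0.994 CPM in KO 1 and KO 2, against 1.59 and 2.01 CPM in WT 1 and WT 2. The groups overlapped, and the log2 fold change of -0.42 (SE 0.40) was -0.22 within S1 and -0.65 within S2. It was -0.86 without KO 1 and -0.07 without KO 2. Of its 5141 exonic bases, 1429 are shared with exons of Ccdc24 on the opposite strand, which had 0 to 4 counts. Also on the opposite strand, 511 are shared with Gm17114 (0 to 3 counts) and 46 with B4galt2 (46 to 66 counts). No source used here gives the strand setting of the counting, so reads of these genes may not be told apart.

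Among other plasma membrane transporters, 2 genes with higher levels in KO stood out, both of the Slc38 family. The list held 40 further genes, of which 19 passed the filter, with a median log2 fold change of 0.05, and 0 of the 19 were called in edgeR without a block. Blocked on the prefix 2 were called, both higher, where 2.05% of all genes were called in either direction. Slc38a3, a glutamine carrier, was at 2.66 and 5.07 CPM in KO 1 and KO 2, against 0.542 and 0.517 CPM in WT 1 and WT 2. Blocked on the prefix it rose by 2.79 in log2 (SE 0.37, adjusted p = 0.00170), and its log2 fold change was 2.86 without it (SE 0.44, adjusted p = 0.0833), while DESeq2 called it (adjusted p = 6.84e-05). Without the block edgeR called it when KO 1, WT 1 or WT 2 was left out, with adjusted p of 0.0292, 0.0258 and 0.0281. Slc38a4, a related carrier, was at 1.37 and 1.58 CPM in KO 1 and KO 2, against 0.414 and 0.191 CPM in WT 1 and WT 2. It rose by 2.32 in log2 with the block (SE 0.47, adjusted p = 0.0293; 0.308 without it). For both genes each KO library was above each WT library. The summed skeletal muscle markers given above were also higher in both KO libraries, and their part in these values was not tested. On coding transcripts alone neither gene was called, blocked on the prefix or not (adjusted p of 0.205 and 0.189 with the block in edgeR). Slc6a13 and Slc6a19, the other 2 with the smallest p, had log2 fold changes of -0.78 (SE 0.38) and -0.60 (SE 0.32) and did not pass.

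Amino acids that enter the cell are sensed at the lysosome, where Rag GTPases recruit the growth kinase mTORC1. Of 29 genes of lysosomal transport and sensing, all were tested and 0 were called in edgeR without a block, with a median log2 fold change of 0.10. Blocked on the prefix 1 of the 29 was called, against 2.05% of all genes, and it was Rragd, which encodes a Rag GTPase. It was at 8.52 and 10.1 CPM in KO 1 and KO 2, against 3.25 and 4.002 CPM in WT 1 and WT 2. It rose by 1.36 in log2 with the block (SE 0.22, adjusted p = 0.00746; 0.116 without it, 0.0744 with it on coding transcripts). The part of the skeletal muscle markers, higher in both KO libraries, was not tested here either. Ctns, the lysosomal cystine exporter, Flcn, which acts on the Rag GTPases, and Pqlc2, a lysosomal carrier of cationic amino acids, had log2 fold changes of 0.36 (SE 0.21), 0.33 (SE 0.26) and 0.28 (SE 0.23) and did not pass.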

How the data were processed

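Per the labels' protocols, a stranded Illumina mRNA kit was used. The tool and build named in the submitters' processing notes are kallisto 0.45.0 and mm10. No source used here gives the transcript set or the strand setting. The authors deposited an estimated count and a TPM value for each of 141450 transcripts per library. Of these, 97.7% were assigned to GENCODE vM21 genes (GRCm38) by identifier, and the rest held 0.992 to 1.04% of counts and were left out. For each gene the deposited estimated counts were added up and then rounded to whole numbers. TPM as deposited, added up likewise, served for levels between genes and for 2 alternatives. The main test was edgeR 4.0.16 (R 4.3.3), quasi-likelihood, with TMM scaling, filterByExpr (minimum count 10, minimum total 15) and genotype as the sole term. The SE is the fitted change over the root of F. Within-prefix differences are log2 CPM with a prior count of 2. The block leaves 1 residual degree of freedom. Alternatives included DESeq2 1.42.0 and limma 3.58.1. Tests were tried on simulated counts, and no error rates from that trial are given here.

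The 10 genes, the lists and the alternatives were chosen with earlier results of these data known. Besides the 10 genes, the text names the genes with the smallest p of each list of transporters and sensing genes, up to 4. Genes outside that rule were named after their values were seen. They are Slc36a2, Ucp1, Ccdc24, Gm17114, B4galt2 and the adipocyte markers Lep, Nnat, Mest, Dio2, Prdm16, Zic1 and Ebf2. Other marker lists (white adipocyte, endothelial, lymphocyte, erythroid and Schwann cell) are given below mainly as counts. Since nothing says that libraries of a group are separate animals, p-values reflect only the variation among these 4, which may be technical. Whether libraries with the same number belong together was checked by the correlation of deviations from group means, which was -0.38 for equal numbers. With 2 libraries in each group, the value for equal prefixes (0.38) is the same number with its sign turned, not a second check.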

Additional observations from a re-analysis of the deposited data

How the results depend on the processing

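None of the 10 genes passed under any alternative in which it could be tested, which were 12 of 17 for Slc7a11, 14 for Slc7a5, 15 for Slc7a1, Slc1a4, Slc38a1 and Slc6a9 and 17 for the others, and their median log2 fold change lay between -0.37 and -0.11 over all of them (-0.23 to -0.13 with 1 library left out). The -0.37 was on log2(TPM + 0.1), where 4 of the 10 could be tested and the median of all genes was -0.11. The number of all genes called (122) was 457 without a filter, 320 with the prefix as a block, 210 in DESeq2 and 78 to 205 with 1 library left out. Atf4 did not pass the main test (log2 fold change -1.46, SE 0.57, adjusted p = 0.9998 in edgeR). It also did not pass with the prefix as a block (-1.18, adjusted p = 0.174), in DESeq2 (adjusted p = 0.208) or in limma-voom (adjusted p = 0.9999). Without a filter it passed (-1.46, adjusted p = 2.08e-07 in edgeR). With 1 library left out its log2 fold change ranged from -2.11, without the library labelled WT 1, to -0.24, without WT 2. Of the 23 other light chains and plasma membrane transporters tested, 3 passed without a filter, 3 with the prefix as a block, 1 in the replicate block, 1 in DESeq2 and 0 to 2 with 1 library left out. Of the sensing genes 1 passed without a filter, 1 with the prefix as a block and 1 in DESeq2. With 1 library left out, signs turned for Slc7a5 (-0.33 to 0.15, positive without KO 1 or WT 2), Slc7a1 (-0.28 to 0.24, positive without KO 1 or WT 1), Slc7a11 (-0.90 to 0.37, positive without KO 2), Slc1a5 (-0.80 to 0.054, positive without KO 2) and Slc38a7 (-0.14 to 0.25, negative without KO 2). Slc38a7 was also negative on log2(TPM + 1), at -0.027, and on log2(TPM + 0.1), at -0.045. The cause was not tested. The coding-transcript fits and the one without skeletal muscle markers were chosen after seeing the data. Counts were lowest, and the counting error so widest, for Slc7a5, Slc7a11, Slc38a1, Slc1a4 and Slc6a9, each under 90 counts in every library. With the prefix as a block no library can be left out, since no residual degrees of freedom would remain.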

Other observations

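Counts for the remaining marker lists were as follows, each from edgeR without a block, which called 0.78% of all genes, unless said otherwise. Of 12 brown adipocyte markers 0 were called and 1 had an unadjusted p under 0.05, with a median log2 fold change of 0.03. Of 9 white adipocyte markers tested 0 were called, with a median log2 fold change of -0.68 and a range of -1.65 to 0.66. The 10 listed summed to 104 and 178 CPM in KO 1 and KO 2, against 409 and 310 CPM in WT 1 and WT 2, with Lep the largest part of each sum. Of 10 endothelial markers 0 were called, with a median of 0.27, and of 12 macrophage markers 0 were called, with a median of -0.69. The medians were 0.65 for 7 T and B lymphocyte markers, 0.40 for 5 erythroid markers and 0.02 for 4 Schwann cell markers, with 0 called in each. Blocked on the prefix, 4 white adipocyte markers were called lower (Lep, Nnat, Mest and Slc7a10), and 1 brown adipocyte marker, Dio2, against 0.473% of all genes. DESeq2 called 2 lower, Lep and Nnat, where it called 1.02% of all genes in either direction and 21 of 20622 lower. With that block 0 macrophage markers were called, and 11 of 12 had an unadjusted p under 0.05, against 8.88% of all genes. The prefixes differed in size here, with a median macrophage log2 difference (KO minus WT) of -1.53 within S1 and -0.12 within S2. Without the block, unadjusted p was under 0.05 for 3, 0, 3, 0, 0 and 1 of the white adipocyte, endothelial, macrophage, lymphocyte, erythroid and Schwann cell markers.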
